A study of Mus musculus with 12 samples.

Results

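Autophagy receptors are proteins that bind cargo marked for destruction, often by ubiquitin, and carry it into the autophagosome, the membrane sac that later fuses with the lysosome. They do so by binding proteins of the LC3 and GABARAP family, which are attached to the growing membrane. TBK1, the kinase that also relays the signal from cytosolic DNA to the interferon genes, phosphorylates several of these receptors. The genes described here are 4 receptors (Sqstm1, Optn, Nbr1 and Tax1bp1), 5 members of the LC3 and GABARAP family (Map1lc3a, Map1lc3b, Gabarap, Gabarapl1 and Gabarapl2) and Wipi1, a protein that binds the phosphoinositide of the forming membrane. They were chosen by name and looked up through their Entrez identifiers, and all 10 of 10 were found among the 17571 genes of the expression table.

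RNA was measured by RNA-seq in L929 cells, a mouse fibroblast line from strain C3H/An, in 4 groups of 3 libraries. All cells first had 1 h with either DMSO, the solvent, or 0.5 µM BX795, an inhibitor of TBK1 and of the related kinase IKKε. The mock group had DMSO, and the pEGFP-N1 group had DMSO and then that plasmid by transfection for 6 h. The BX795 group had the inhibitor, and the BX795 plus pEGFP-N1 group had the inhibitor and then the plasmid for 6 h. Per the paper, the samples of all 4 groups were collected after 6 h. The treatment text of the labels mentions transfection for every sample, so whether cells without plasmid received the transfection reagent cannot be told from it. No gene was deleted in any group. In a bulk sample, fewer cells that express a gene and less RNA per cell cannot be told apart.

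The values are FPKM (mapped fragments scaled to transcript length and to the size of the library), a level per length, so genes can be compared with each other. Their sums lay between 467348 and 513761 per library, and the depth in reads is unknown because no counts were used. Fibroblast genes marked the cells as labelled, with Vim between 1576 and 2101 FPKM and Pdgfrb between 20.6 and 41.2 FPKM, while Dcn stayed at or under 0.03. Of 6 macrophage genes only Cd68, a lysosomal protein, was above 0.11 FPKM, and the epithelial and endothelial lists stayed at or under 0.44.

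Several libraries went against their labels. Ifit1, an interferon-induced RNA-binding protein, reached 96.7 and 95.2 FPKM in replicates 1 and 3 labelled pEGFP-N1 but was listed at 0 in replicate 2. Under the label BX795 plus pEGFP-N1, replicate 1 had 92.6 FPKM and replicates 2 and 3 had 0.17 and 0.57. The same libraries stood apart over all genes. When the deviation of each library from the mean of the 12 was correlated over the 10412 genes tested, the library labelled pEGFP-N1 replicate 2 was most like BX795 replicate 2 (r = 0.744) and ran opposite to pEGFP-N1 replicates 1 and 3 (r = -0.648 and -0.698). The library labelled BX795 plus pEGFP-N1 replicate 1 was most like pEGFP-N1 replicate 3 (r = 0.844). The library labelled BX795 replicate 1 was most like BX795 plus pEGFP-N1 replicate 2 (r = 0.56). In it the interferon-induced chemokine Cxcl10 had 7.86 FPKM, beside 0.9 and 1.85 in replicates 2 and 3 of that label. BX795 plus pEGFP-N1 replicates 2 and 3 had 5.68 and 6.47. The interferon-induced gene Ifit3 had 0.16 FPKM in BX795 replicate 1, beside 0.18 and 0.25 in replicates 2 and 3. In all, 6 of the 12 libraries were most like a library with another label. Whether labels of pEGFP-N1 replicate 2, BX795 replicate 1 and BX795 plus pEGFP-N1 replicate 1 were exchanged was not tested with these values, other assays of the same samples were not analysed here, and every group mean and difference below rests on the labels as given. No library was moved to another group. Results are also given without pEGFP-N1 replicate 2 and BX795 plus pEGFP-N1 replicate 1, and the counts of calls without all 3.

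**Figure D1:**
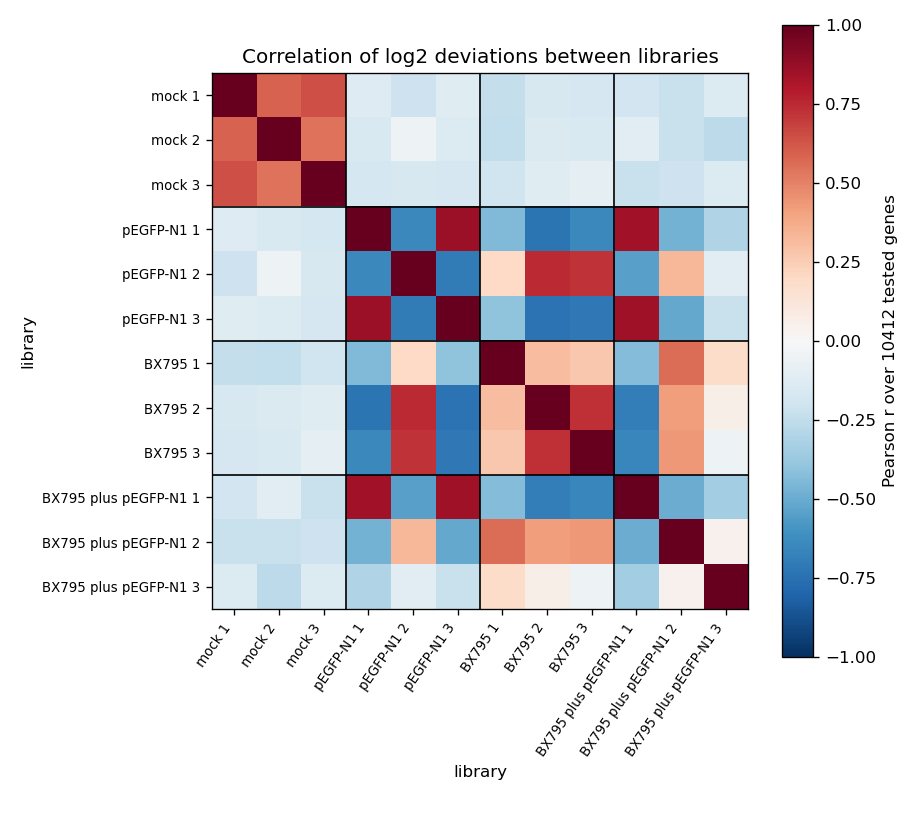
Pearson correlation, over 10412 genes, between the deviations of log2(FPKM + 1) of each pair of libraries from the mean of all 12 (both axes list the libraries by group and replicate, black lines part the groups). The 3 mock libraries form a block, whereas pEGFP-N1 replicate 2 is red against BX795 replicates 2 and 3 and BX795 plus pEGFP-N1 replicate 1 is red against pEGFP-N1 replicates 1 and 3.

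In the mock cells, Sqstm1, the receptor p62 that gathers ubiquitin-tagged protein, was the most abundant of the 10 at 381 ± 12.97 FPKM (SD, n = 3). Gabarap followed at 166 ± 8.93 and Tax1bp1, a receptor first known as a brake on inflammatory signaling, at 116 ± 4.67 FPKM (SD, n = 3 each). Gabarapl1 had 48.8 ± 0.785, Map1lc3b 31.8 ± 1.40, Gabarapl2 26.0 ± 1.46 and Nbr1, a receptor related to p62, 21.5 ± 1.151 FPKM. Wipi1 had 13.6 ± 0.743, Optn (optineurin, a receptor for bacteria and damaged mitochondria) 9.60 ± 0.441 and Map1lc3a 7.98 ± 0.338 FPKM. In the GENCODE annotation of GRCm38, Sqstm1 lies on chromosome 11 (50199366 to 50210827, minus strand), Optn on chromosome 2 (5020642 to 5064051, minus strand), Wipi1 on chromosome 11 (109573331 to 109611967, minus strand) and Map1lc3b on chromosome 8 (121590361 to 121598760, plus strand). Over all 12 libraries the mean of Sqstm1 lay above that of 99.0% of the genes in the table and that of Map1lc3a above 62.8%. The ranges over the 12 libraries were separate between Sqstm1, Gabarap, Tax1bp1, Gabarapl1 and Map1lc3b. From Map1lc3b down, the ranges of neighbours overlapped, and Wipi1 was above Optn in only 8 of 12 libraries.

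**Figure D2:**
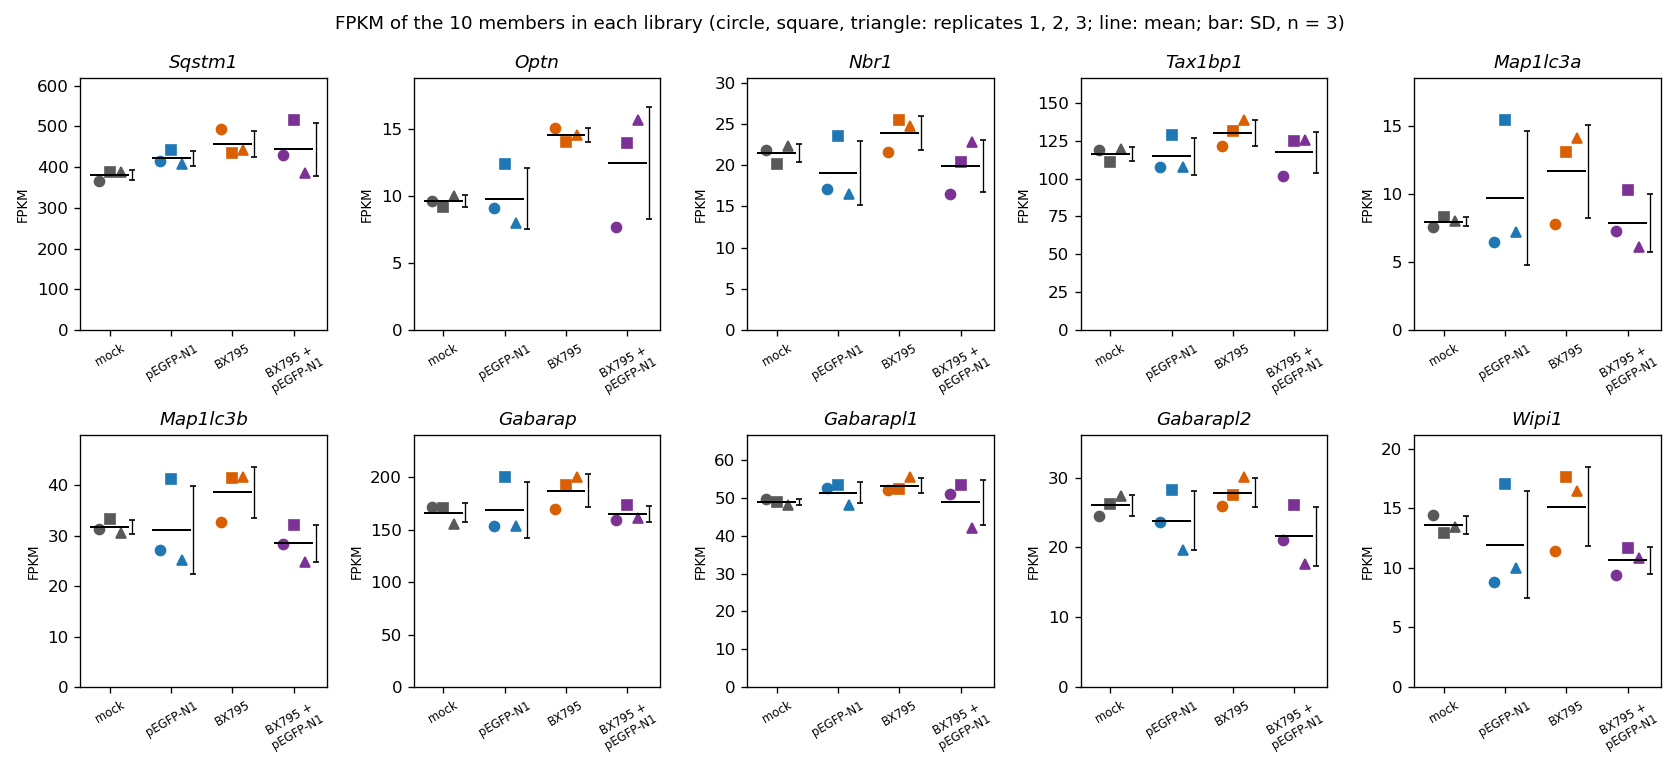
FPKM of the 10 genes (vertical axes, each from 0) in the 4 groups (horizontal axes), with circles, squares and triangles for replicates 1, 2 and 3, a line for the mean and a bar for the SD (n = 3). The mock libraries lie close together, whereas Map1lc3a in the pEGFP-N1 group runs from 6.5 to 15.4 FPKM.

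None of the 10 genes passed the test in any comparison when all 12 libraries were used (limma, adjusted p under 0.05). The effect of BX795 was averaged over cells with and without plasmid (6 libraries against 6), and so was the effect of plasmid over cells with and without BX795. Over all genes tested these comparisons called 0% (0 of 10412) and 0% (0 of 10412), with 1179 and 637 genes at an unadjusted p under 0.05, of which 2 and 3 were among the 10. The difference between the plasmid effects with and without BX795 also called 0% of genes, with 407 at an unadjusted p under 0.05. The two-sided exact permutation test, in which labels were permuted within each level of the other factor (400 arrangements, smallest possible p 0.005), gave 20 values between 0.06 and 0.965 for the 10 genes and both averaged effects.

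Optn had the largest difference with BX795 among the receptors. Its FPKM were 9.63, 9.15 and 10.03 in mock cells and 15.1, 14.01 and 14.5 with BX795. With plasmid alone they were 9.08, 12.4 and 7.95, and with both 7.7, 13.9 and 15.6. The BX795 libraries stood above all 3 mock libraries, whereas the plasmid groups overlapped, with pEGFP-N1 replicate 2 high and BX795 plus pEGFP-N1 replicate 1 low, the libraries that stood apart. The averaged difference with BX795 was 0.42 on the log2(FPKM + 1) scale (SE 0.146, adjusted p = 0.380 by limma, exact permutation p = 0.065), a 1.33-fold higher FPKM + 1, and that with plasmid was -0.13 (SE 0.146, adjusted p = 0.834 by limma).

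Sqstm1 had 366, 389 and 388 FPKM in mock cells, 416, 441 and 407 with plasmid, 495, 435 and 441 with BX795, and 431, 515 and 386 with both agents. Each of the 3 plasmid and 3 BX795 libraries was above every mock library, and the group given both reached from below the highest mock value to the highest value of all. The averaged log2 difference was 0.16 with BX795 (SE 0.0664, adjusted p = 0.406 by limma, exact permutation p = 0.06) and 0.05 with plasmid (adjusted p = 0.858).

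Nbr1 had 21.9, 20.2 and 22.4 FPKM in mock cells, 17.1, 23.5 and 16.5 with plasmid, 21.6, 25.4 and 24.8 with BX795, and 16.5, 20.3 and 22.8 with both agents. The lowest values were in pEGFP-N1 replicates 1 and 3 and in BX795 plus pEGFP-N1 replicate 1, the 3 libraries with high interferon-induced genes. Its averaged log2 difference was 0.11 with BX795 (adjusted p = 0.635, limma) and -0.22 with plasmid (adjusted p = 0.788, limma).

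Tax1bp1 had 119, 111 and 119 FPKM in mock cells, 108, 129 and 107 with plasmid, 121, 131 and 138 with BX795, and 102, 125 and 126 with both agents. The BX795 libraries were again above the mock libraries and the plasmid groups overlapped with both agents. The averaged log2 differences were 0.10 with BX795 (adjusted p = 0.557, limma) and -0.09 with plasmid (adjusted p = 0.792, limma).

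Among the LC3 and GABARAP genes, whose products coat the forming membrane, Map1lc3a varied most. Its FPKM were 7.62, 8.29 and 8.03 in mock cells, 6.5, 15.4 and 7.23 with plasmid, 7.79, 13.1 and 14.2 with BX795, and 7.31, 10.3 and 6.13 with both agents. High values were those of pEGFP-N1 replicate 2 and BX795 replicates 2 and 3, which were also alike over all genes, and every group with an agent overlapped the mock group. The averaged log2 differences were 0.13 with BX795 (SE 0.202, adjusted p = 0.777, limma) and -0.17 with plasmid (SE 0.202, adjusted p = 0.843, limma). Without pEGFP-N1 replicate 2 they were 0.31 and -0.34, and without pEGFP-N1 replicate 1 they were 0.024 and -0.062.

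Map1lc3b, the usual marker of autophagosomes as a protein, had 31.4, 33.3 and 30.6 FPKM in mock cells, 27.2, 41.2 and 25.2 with plasmid, 32.8, 41.6 and 41.6 with BX795, and 28.5, 32.2 and 24.8 with both agents. The same 3 libraries were the highest. Its averaged log2 differences were 0.08 with BX795 (adjusted p = 0.750, limma) and -0.24 with plasmid (adjusted p = 0.788, limma). The former was 0.19 without pEGFP-N1 replicate 2 and 0.017 without pEGFP-N1 replicate 3. Gabarap had 172, 171 and 156 FPKM in mock cells, 154, 200 and 153 with plasmid, 169, 192 and 200 with BX795, and 160, 174 and 161 with both, with averaged log2 differences of 0.07 and -0.08.

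Gabarapl1 had the smallest SD of the 10 on the log2(FPKM + 1) scale over the 12 libraries, 0.102, with 42.2 to 55.5 FPKM. Its averaged log2 differences were 0.02 with BX795 (95% interval -0.10 to 0.15) and -0.03 with plasmid (95% interval -0.16 to 0.10). Gabarapl2, known as GATE-16 and also a factor in Golgi transport, had 24.5, 26.2 and 27.4 FPKM in mock cells, 23.6, 28.2 and 19.7 with plasmid, 25.96, 27.4 and 30.03 with BX795, and 21.1, 26.0 and 17.7 with both agents. The averaged log2 difference was -0.02 with BX795 and -0.25 with plasmid (SE 0.0988, adjusted p = 0.788, limma).

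Wipi1 had 14.4, 12.95 and 13.4 FPKM in mock cells, 8.78, 17.1 and 10 with plasmid, 11.4, 17.6 and 16.4 with BX795, and 9.4, 11.7 and 10.8 with both agents. All libraries given plasmid except pEGFP-N1 replicate 2 were below the mock libraries, and so was BX795 replicate 1, which had no plasmid (11.4 FPKM). Its averaged log2 difference with plasmid, -0.34 (SE 0.146, adjusted p = 0.788 by limma, exact permutation p = 0.07), was the largest of the 10, and with BX795 it was 0.01.

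**Figure D3:**
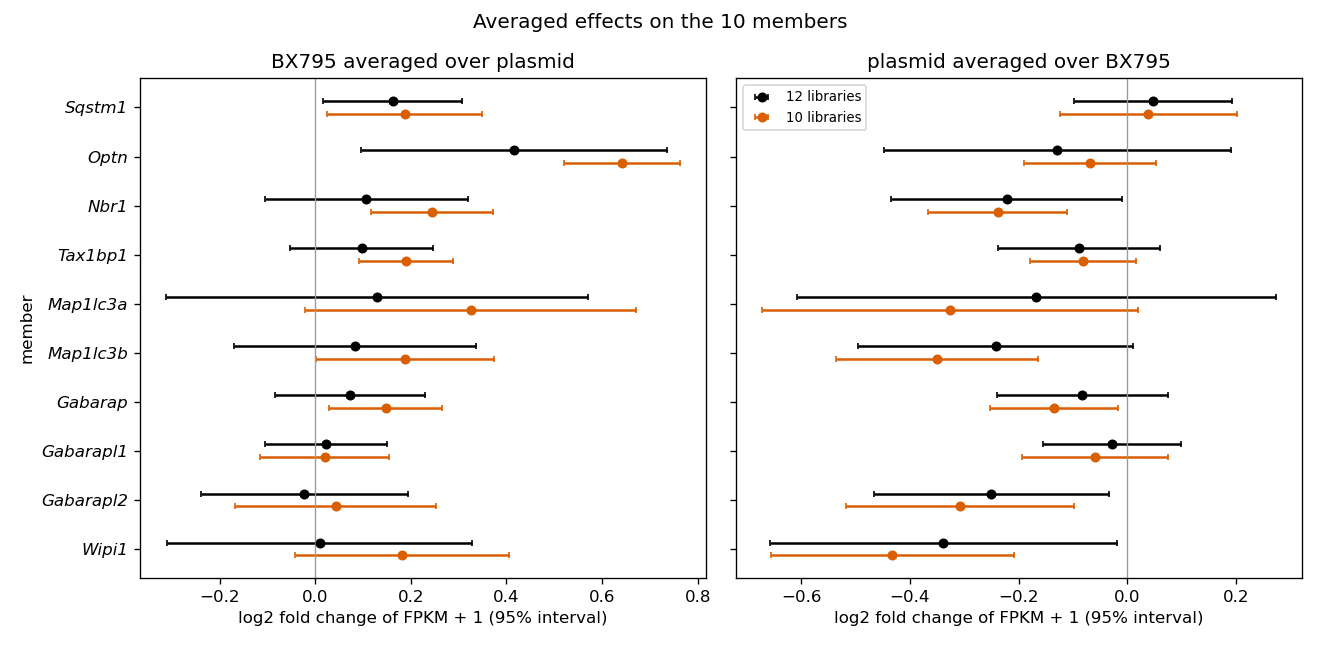
Averaged log2 fold change of FPKM + 1 with BX795 (left) and with plasmid (right) for each of the 10 genes, as points with 95% intervals, from all 12 libraries (black) and from 10 libraries without pEGFP-N1 replicate 2 and BX795 plus pEGFP-N1 replicate 1 (orange). Optn has the largest value with BX795, 0.42 from 12 libraries and 0.64 from 10, and Wipi1 the largest with plasmid, -0.34 and -0.43.

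Against mock alone, BX795 gave positive log2 differences in 10 of 10 genes, with a median of 0.17 beside 0.03 over all genes tested, but the comparison called 0 of the 10 and 0.0672% of all genes (7 of 10412). The ULK1 kinase complex had a median of 0.18 there (5 of 5 positive) and the other autophagy receptors 0.11 (13 of 16 positive). TBK1 and its adaptors had -0.03 (2 of 5 positive). Optn differed by 0.55 (SE 0.207, adjusted p = 0.301, limma) and Sqstm1 by 0.26 (SE 0.0938, adjusted p = 0.291, limma). All 3 BX795 libraries were above all 3 mock libraries in 4 of the 10 (Sqstm1, Optn, Tax1bp1 and Gabarapl1), a state that 23.6% of all genes shared. A fit of these 6 libraries alone, whose spread is not widened by the plasmid groups, called Optn (adjusted p = 0.000355, limma) and Sqstm1 (adjusted p = 0.0131, limma). It called 20.6% of all genes (12.7% as higher), so 2 of 10 is near the background. That fit rests on BX795 replicate 1 as well, and it called 9 of the 10 beside 42.2% of all genes when this library was left out, and 1 beside 8.24% when mock replicate 1 was left out.

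Plasmid against mock called 0 of the 10 genes and 0.0672% of all genes, and Sqstm1 was the only member whose 3 plasmid libraries all exceeded mock, where 5.52% of all genes did. Of the 10 differences, 5 were positive and 5 negative, with a median of -0.0087 beside -0.0026 over all genes. With pEGFP-N1 replicate 2 and BX795 plus pEGFP-N1 replicate 1 left out, the median was -0.18 and 2 of the 10 were positive. In cells with BX795, plasmid called 0 of the 10 and 0% of all genes, with 579 at an unadjusted p under 0.05. All 10 differences were negative there, with a median of -0.26 beside -0.02 over all genes. Without BX795 plus pEGFP-N1 replicate 1 and pEGFP-N1 replicate 2 the median was -0.16 and 1 of the 10 was positive. Other lists were also negative there with all 12 libraries, with a median of -0.23 for the ULK1 kinase complex (5 of 5 negative) and -0.22 for the fibroblast markers (6 of 8 negative). Map1lc3b was lower without overlap, at 24.8 to 32.2 FPKM with both agents against 32.8 to 41.6 with BX795, as were 6.66% of all genes, but it did not pass the test (log2 difference -0.43, adjusted p = 0.604, limma). BX795 in cells with plasmid called 0 of the 10 and 0% of all genes, with 166 at an unadjusted p under 0.05. Of these differences of the 10 genes, 4 were positive and 6 negative, with a median of -0.05 beside 0.01 over all genes. Without the same pair of libraries the median was 0.16 and 8 of the 10 were positive. The 4 comparisons share control libraries.

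Without pEGFP-N1 replicate 2 and BX795 plus pEGFP-N1 replicate 1, the averaged effect of BX795 called 3 of the 10, all higher. These were Optn (log2 difference 0.64, adjusted p = 1.54e-05), Nbr1 (0.24, adjusted p = 0.00890) and Tax1bp1 (0.19, adjusted p = 0.00845; limma for all). The same fit called 33.8% of all genes (20% as higher), so 3 of 10 is near the background. The averaged effect of plasmid called Wipi1 (-0.43, adjusted p = 0.0416), Map1lc3b (-0.35, adjusted p = 0.0445) and Nbr1 (-0.24, adjusted p = 0.0456), all lower, beside 4.34% of all genes (2.3% as lower; limma). Without BX795 replicate 1 as well, the averaged effect of BX795 called 7 of the 10, all higher, beside 38.6% of all genes (22.8% as higher), and that of plasmid called 5, all lower, beside 18.7% (10.7% as lower). The first pair of libraries was left out because their interferon-induced genes went against their labels, and BX795 replicate 1 after the data were seen. Cxcl10 in BX795 replicate 1 also stood apart from replicates 2 and 3 of its label, as given above. Both the differences and their errors moved without the first pair, as for Optn with BX795 (0.42 to 0.64, SE 0.146 to 0.0552), and the median of the 10 with BX795 went from 0.09 to 0.19. Since the libraries were chosen from measured values, these calls do not stand as the result of the labelled comparison.

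**Figure D4:**
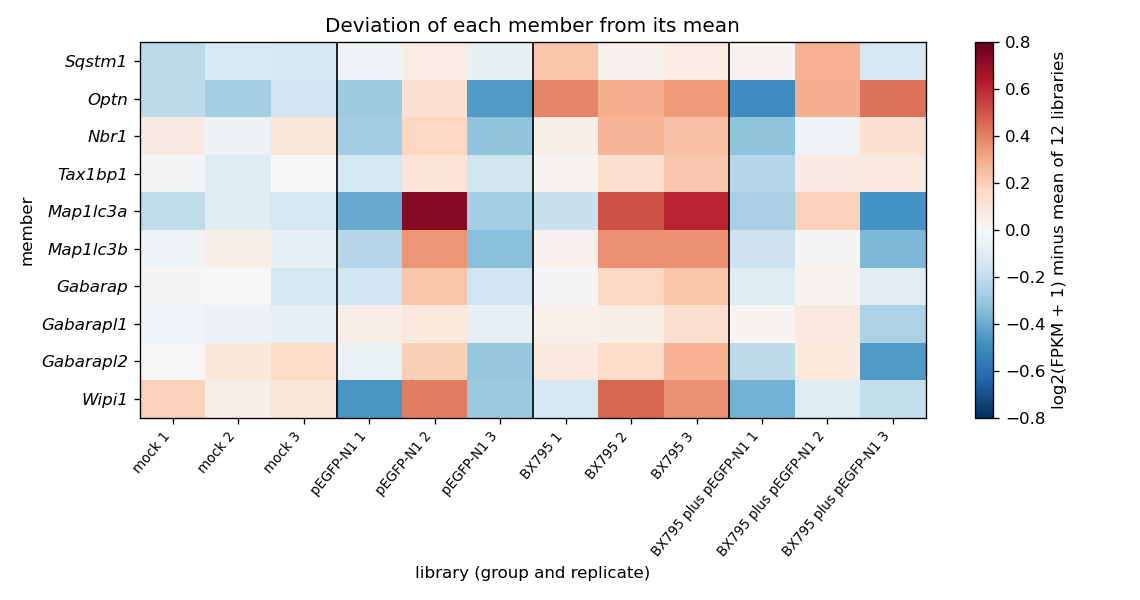
Deviation of log2(FPKM + 1) from the mean of the 12 libraries for each of the 10 genes (rows) in each library (columns, black lines part the groups). pEGFP-N1 replicate 2 is red like BX795 replicates 2 and 3 in Map1lc3a, Map1lc3b, Gabarap and Wipi1, and BX795 plus pEGFP-N1 replicate 1 is blue like pEGFP-N1 replicates 1 and 3 in Optn, Nbr1 and Wipi1.

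Some of the genes varied together over the 12 libraries. Map1lc3b and Gabarap had a Pearson r of 0.933, Map1lc3a and Gabarap 0.931, and Nbr1 and Tax1bp1 0.924, whereas Sqstm1 and Wipi1 had -0.01. These correlations share the libraries that stood apart and are given as a description (n = 12). The genes most like Optn were Aspm (r = 0.987), Kntc1 (0.986), Trim59 and Kif4 (0.983 each) and Arhgap11a (0.982), of which Aspm, Kntc1 and Kif4 act in mitosis. Those most like Map1lc3a were Tmc6 (r = 0.983), Naxe and Smpd1 (0.978 each), Aamp (0.975) and Fam234a (0.974).

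The rest of the pathway was read from 8 lists. In all 8, 0 genes passed the test in either averaged comparison with all 12 libraries. The ULK1 kinase complex, which starts autophagy, had 5 of 5 genes tested and medians of 0.09 with BX795 and -0.19 with plasmid, and its most abundant gene, Atg101, had 16.7 to 29.6 FPKM. The PI3-kinase complex (7 genes tested) had medians of 0.01 and -0.06, with Becn1 at 37.1 to 43.6 FPKM. The WIPI, ATG2 and ATG9 proteins (6 tested) had medians of 0.04 and -0.11, with Wipi2 at 44.1 to 56.4 FPKM.

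The conjugation enzymes and ATG4 proteases that attach and release LC3 (9 tested) had medians of 0.04 and -0.02, with Atg3 at 34.7 to 44.1 FPKM. The genes for fusion with lysosomes (12 tested) had 0.05 and -0.05, with Rab7 at 121 to 145 FPKM. The other autophagy receptors (16 tested) had 0.08 and -0.06, with Phb2, a mitochondrial receptor, at 234 to 303 FPKM. TBK1 and its adaptors (5 tested) had -0.0016 and -0.04, and its most abundant genes were the adaptor Azi2 at 20.3 to 25.2 FPKM and Tbk1 itself at 18.7 to 21.9 FPKM. The lysosome and TFEB genes (15 tested) had 0.04 and -0.02, with Ctsb at 273 to 315 FPKM.

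Without pEGFP-N1 replicate 2 and BX795 plus pEGFP-N1 replicate 1, the averaged effect of BX795 called 3 of 5 genes of the ULK1 complex as higher (median 0.22), 3 of 6 WIPI, ATG2 and ATG9 genes and 6 of 16 other receptors (with 1 as lower), beside 20% of all genes. In the other 5 lists it called 1 to 3 genes as higher and 0 to 2 as lower. The averaged effect of plasmid called 2 of 6 WIPI, ATG2 and ATG9 genes as lower, beside 2.3% of all genes, and 0 in the other 7 lists. Without BX795 replicate 1 as well, it called 5 of 5 genes of the ULK1 complex as lower, beside 10.7%. The limit given for the calls among the 10 genes holds for these too.

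Regulators of the 10 genes were read from 2 further lists. NRF2 is a factor of the oxidant response that acts on Sqstm1 and is itself freed when p62 holds its inhibitor. NRF2 and its targets (10 tested) had medians of -0.11 with BX795 (10 of 10 negative) and 0.15 with plasmid (8 of 10 positive), with the thioredoxin reductase Txnrd1 at 67.1 to 119 FPKM. FOXO factors and their targets (9 tested) had 0.15 (8 of 9 positive) and -0.11 (8 of 9 negative), with Ccng2, cyclin G2, at 7.63 to 22.7 FPKM. In both lists 0 genes were called with all 12 libraries. Without pEGFP-N1 replicate 2 and BX795 plus pEGFP-N1 replicate 1, the averaged effect of BX795 called 8 of the 10 NRF2 genes as lower (13.9% of all genes were) and 5 of the 9 FOXO genes as higher (20% of all genes were), and that of plasmid called 2 NRF2 genes as higher (2.05%) and 1 FOXO gene as lower (2.3%), with that limit again. Interferon-induced genes (8 tested) had medians of -0.67 with BX795 (7 of 8 negative) and 2.62 with plasmid (8 of 8 positive), and 0 were called with all 12 libraries, with levels that differed widely between the libraries of each plasmid group. Without the same pair of libraries, whose interferon-induced genes were the ground for leaving them out, 8 of 8 were called lower with BX795 (median -2.30) and 8 of 8 higher with plasmid (median 2.72), which is a description of that choice.

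Promoters (250 bases before to 50 after the start, RefSeq, GRCm38.p6) were found for 9 of the 10 genes, 11 windows in all. Motifs were searched on both strands. The E-box CACGTG, its TFEB form TCACGTGA, which contains it, and the forkhead motif GTAAACA were in 0 of the 11 windows, beside 7.15%, 0.974% and 3.65% of all 32851. The core of the antioxidant response element, TGANNNNGC, was in 5 of 11 beside 41.3%, and the interferon-stimulated response element, searched as GAAA and GAAA with 2 bases of any kind between, in 1 of 11 (Nbr1) beside 3.44%. A match is only a run of letters. The windows below are shown because Optn and Wipi1 had the largest differences with BX795 and with plasmid and Nbr1 held the interferon element, with the match in capitals and each read 5′ to 3′ on the strand of the gene. The matches shown begin at -197, -59 and -9 from the RefSeq start of Optn, Wipi1 and Nbr1, and no GENCODE coding sequence overlaps them. The GENCODE gene spans begin further upstream for Wipi1, whose match lies in an intron of that span, and for Nbr1, whose match has as its last base the first base of an exon's untranslated part. The Nbr1 start used here is the later of 2 RefSeq starts of the gene (101552107 and 101552654). Wipi1 held another match of the antioxidant element at +27, which is not shown.
Optn, chr2:5064286-5064334, minus strand: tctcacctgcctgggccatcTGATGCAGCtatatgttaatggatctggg
Wipi1, chr11:109611420-109611468, minus strand: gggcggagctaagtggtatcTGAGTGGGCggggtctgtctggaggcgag
Nbr1, chr11:101552625-101552654, plus strand: agggtggccaatcggcttggGAAAGGGAAA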

How the data were processed

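L929 RNA was sequenced in 12 libraries (3 per group). Per the paper's methods and labels, reads from a BGISEQ-500 were aligned by the authors to GRCm38.p5 with Bowtie2 2.2.5 before RSEM estimated the levels. The values the authors deposited are FPKM per Entrez gene, rounded to 2 decimals. Since FPKM are not counts, limma 3.58.1 (R 4.3.3) was fitted to log2(FPKM + 1) with 4 group means and a trend, for the 10412 genes that reached 1 FPKM in 3 or more libraries, with Benjamini-Hochberg adjustment over all of them and a threshold of 0.05. A log2(FPKM + 1) difference understates the change of low genes. Depth is unknown, so no counting interval is given. Nothing states that the replicates were separate cultures, so p-values measure the spread between these libraries. Of 17571 identifiers, 17450 matched RefSeq names.

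The 10 genes and the lists were chosen with earlier results of these data known. All 10 genes are named, with the 1 or 2 most abundant genes of each pathway or regulator list, none of which had a called gene. Ifit1, Ifit3, Cxcl10 and the marker genes are examples. Alternatives were another pseudocount (0.1), 2 other filters, TPM scaling, quantile normalization, no trend, a replicate block, the study's thresholds, fits of the compared groups alone, each library left out, and 2 or 3 libraries that stood apart left out. The fit without 3 libraries, and the leave-outs within the mock and BX795 groups, were chosen after seeing the data. The fit was checked on simulated data. Protein sequences were not used here.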

Additional observations from a re-analysis of the deposited data

How the results depend on the processing

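With all 12 libraries no setting of scale, filter or moderation called any of the 10 genes. Counts over all genes stayed small: without a filter they were 1, 1 and 1 for the averaged effects of BX795 and plasmid and their difference, 2 for plasmid and 1 for plasmid under BX795, and 2 for BX795 under plasmid. They were 3 for averaged BX795 without the trend, and for averaged plasmid 3 with a mean FPKM of at least 5, 3 with TPM and 1 with quantile normalization. The study's thresholds (FDR of at most 0.001 and absolute log2 fold change of at least 2), set on the limma values, gave 0 for BX795 or plasmid against mock. The study's own test needs counts and could not be run on FPKM, so this is no repeat of its calls. The replicate block gave 1 gene for averaged BX795 and 0 of the 10 in all 7 comparisons. Only 6 of 18 same-number correlations were over 0.1 (-0.389 to 0.635), those of replicates 1 and 2 among the 3 groups given an agent (0.116 to 0.635), while the mock pairs and replicate 3 were not, so the numbers were not taken to pair the libraries.

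What moved the calls was the set of libraries. Fits of the compared groups alone gave 2 of the 10 and 2150 genes for BX795 against mock and 4 genes for plasmid. Without pEGFP-N1 replicate 2 and BX795 plus pEGFP-N1 replicate 1, the 10 genes gave 3 calls for each averaged effect, 1 for BX795 and 1 for plasmid against mock, and 3 for BX795 under plasmid, with 3522, 452, 132 (difference), 1466, 391 and 1886 genes. Without BX795 replicate 1 too, they gave 7 and 5 for the averaged effects, 7 for BX795 and 2 for plasmid against mock, 3 for plasmid under BX795 and 3 for BX795 under plasmid, with 4022, 1952, 139 (difference), 2471, 927, 676 and 2502 genes. These libraries were chosen from measured values, and both the differences and their errors moved without them, so these fits are not taken as results.

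Leaving out each library in turn gave 0 to 1 of the 10 and 0 to 821 genes for averaged BX795 (Optn, 0.56, without BX795 plus pEGFP-N1 replicate 1), 0 to 2 of the 10 and 0 to 362 genes for averaged plasmid (Map1lc3b and Wipi1 without pEGFP-N1 replicate 2), 0 to 1 genes for the difference, 0 to 17 genes for plasmid against mock and 0 to 149 genes for BX795 against mock. In the fit of the mock and BX795 libraries alone it gave 1 to 9 of the 10, with 858, 975 and 1066 genes without mock replicates 1 to 3 and 4396, 968 and 1138 without BX795 replicates 1 to 3. Single libraries also moved averaged differences by over 1.5 times without a change of sign. With BX795, Sqstm1 ran from 0.11 to 0.21, Nbr1 from 0.057 to 0.18, Tax1bp1 from 0.071 to 0.15 and Gabarap from 0.041 to 0.14, and with plasmid Tax1bp1 ran from -0.13 to -0.039 and Gabarap from -0.15 to -0.051. Differences near 0 changed sign. With BX795, Gabarapl1 ran from -0.011 to 0.073, Gabarapl2 from -0.092 to 0.042 (0.043 without both libraries, 0.066 without 3) and Wipi1 from -0.079 to 0.14 (-0.011 with quantile normalization). With plasmid, Sqstm1 ran from -0.0087 to 0.095, Optn from -0.22 to 0.014 and Gabarapl1 from -0.061 to 0.023.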
